A study of Mus musculus with 80 samples.

Results

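The G1 cyclins and Myc are the genes through which growth signals reach the decision to copy DNA. The set described here holds 6 genes: the D-type cyclins Ccnd1, Ccnd2 and Ccnd3, the E-type cyclins Ccne1 and Ccne2, and Myc. They were taken by gene symbol from a table of liver transcript levels, as 6 of its 14560 genes, by a rule that uses no measured value but was set with earlier results of these data known. All 6 symbols were present, and all 6 passed the filter on low values described under the processing.

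D-type cyclins bind the kinases CDK4 and CDK6, and the pairs phosphorylate the retinoblastoma protein, which releases E2F transcription factors. Cyclins E1 and E2 then activate CDK2, which drives the start of DNA replication, and the CDK inhibitors of the Cip/Kip and INK4 families hold these kinases back. Myc, a transcription factor that pairs with Max, raises genes of ribosome assembly and cell growth. In the liver, where most hepatocytes rest outside the cell cycle, Myc is among the genes induced early after injury or partial hepatectomy, and cyclin D1 is the cyclin most closely tied to hepatocytes passing through G1.

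Livers of 8-week-old female mice were sequenced 4 h, 12 h, 24 h or 7 days after a single intraperitoneal injection. The groups were Adamts12-/- mice given carbon tetrachloride (CCl4), Adamts12-/- mice given vehicle, wild-type C57BL/6J mice given CCl4, and wild-type C57BL/6J mice given vehicle, each at the 4 times. CCl4, a solvent that pericentral hepatocytes convert to a toxic radical, was given at 0.3 ml/kg as a 3% v/v solution in olive oil, and vehicle was olive oil alone. Adamts12 encodes a secreted metalloproteinase. Adamts12-/- mice are labelled as C57BL/6J too, and the extent of the deletion is not given in them. The 16 groups held 5 mice each, 80 in all, and each library came from 500 ng of total RNA by a stranded mRNA method. The labels say no more of replicates than that they are separate samples of a group with separate mouse numbers.

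A pair of libraries was left out of every result unless stated, because their profiles stood with the other treatment. The library labelled Adamts12-/- CCl4 12 h replicate 5 had a correlation across genes of 0.928 with the mean of its own group and 0.987 with that of the vehicle group of that time, and its Myc level was 86.0 normalized counts. The library labelled Adamts12-/- vehicle 12 h replicate 1 had a correlation of 0.989 with the CCl4 group and 0.918 with its own, and its Myc level was 6266 normalized counts. The other 78 libraries enter below, with 4 in each of those 2 groups. Depth was between 18.6 and 64.5 M reads per library (median 32.7), so a floor of 3 reads lay between 1.16 and 6.02 normalized counts. Adamts12 transcript lay between 0.9 and 25.4 normalized counts in Adamts12-/- livers (median 6.8, n = 38) and between 5.9 and 75.6 in wild-type livers (median 18.8, n = 40), so the ranges overlapped at low counts. Mouse numbers below 7000 occur only among wild-type mice, in 2 of 5 CCl4 and 0 of 5 vehicle livers at 12 h, 0 of 5 CCl4 and 4 of 5 vehicle livers at 24 h, and 4 of 5 CCl4 and 2 of 5 vehicle livers at 7 days. The labels do not say what the numbers stand for.

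The members lie apart in the mouse genome (GRCm38). The annotation places Ccnd1 (ENSMUSG00000070348) on chromosome 7 from 144929931 to 144939925, minus strand. It places Ccnd2 (ENSMUSG00000000184) on chromosome 6 from 127125162 to 127152193, minus strand. Next come Ccnd3 (ENSMUSG00000034165) on chromosome 17 from 47505051 to 47599691, plus strand, and Ccne1 (ENSMUSG00000002068) on chromosome 7 from 38097984 to 38107534, minus strand. The remaining genes are Ccne2 (ENSMUSG00000028212) on chromosome 4 from 11191351 to 11204779, plus strand, and Myc (ENSMUSG00000022346) on chromosome 15 from 61985391 to 61990374, plus strand. Ccnd1 overlaps LTO1 on the opposite strand, Ccnd3 overlaps Bysl, Ccne2 overlaps Ints8, and Ccnd2 overlaps 2 antisense genes. The libraries kept strand, but the strand setting of the counting is not given in the sources used here.

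RefSeq promoter sequences (GRCm38.p6) were at hand for 2 members, Ccnd3 with 2 annotated starts and Ccne1 with 1. Of the 5 cyclins Ccne1 had the widest range of levels and Ccnd3 one of the narrowest, as given below. The sequences were not picked by these ranges, but are shown because none was at hand for the other members. Each is the stretch of the 250 bases before the start that lies outside annotated exons, 5′ to 3′ on the gene's strand, and capitals mark the GC box (GGGCGG or CCGCCC, bound by SP factors) and, in the second Ccnd3 window, the CCAAT box (bound by NF-Y).
Ccnd3, chr17:47504801-47505050, plus strand: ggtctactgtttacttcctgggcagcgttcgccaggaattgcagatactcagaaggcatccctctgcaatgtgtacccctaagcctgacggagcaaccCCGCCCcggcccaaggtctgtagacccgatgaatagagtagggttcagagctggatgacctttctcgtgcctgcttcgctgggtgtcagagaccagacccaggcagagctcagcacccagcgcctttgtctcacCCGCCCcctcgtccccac
Ccnd3, chr17:47593217-47593435, plus strand: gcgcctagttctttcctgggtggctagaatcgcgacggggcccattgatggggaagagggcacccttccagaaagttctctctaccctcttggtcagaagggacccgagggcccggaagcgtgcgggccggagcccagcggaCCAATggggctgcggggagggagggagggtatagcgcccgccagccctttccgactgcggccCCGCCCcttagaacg
Ccne1, chr7:38107535-38107740, minus strand: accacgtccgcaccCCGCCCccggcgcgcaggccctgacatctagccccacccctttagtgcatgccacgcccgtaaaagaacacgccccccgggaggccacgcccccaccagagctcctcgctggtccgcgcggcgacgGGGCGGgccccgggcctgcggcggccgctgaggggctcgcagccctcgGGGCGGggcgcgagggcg
The Ccne1 window held 3 GC boxes, and the Ccnd3 windows held 2 and 1. Among 32851 RefSeq promoters of 250 bases, 32.74% held a GC box and 33.85% a CCAAT box on either strand. No printed window held an E2F site (TTTGGCGC, TTTCGCGC or TTTCCCGC), the E-box CACGTG that Myc and Max bind, or the CRE TGACGTCA, which 1.53%, 6.02% and 1.55% of promoters held. Absence of these letters covers these windows only.

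After CCl4, Myc and Ccne2 stood above vehicle at 4, 12 and 24 h, Ccnd3 stood below it at 4 and 12 h, and Ccnd1 was below it at 4 h and above it at 24 h, in both genotypes. Log2 differences below are CCl4 minus vehicle on log2(normalized count + 1), with the standard error, from limma fitted to all genes, and a gene was called at a Benjamini-Hochberg adjusted p under 0.05 over all genes tested. At 4 h, 2 members rose (Ccne2 and Myc) and 2 fell (Ccnd1 and Ccnd3) in Adamts12-/- livers, where 38.8% of all tested genes were called, and the same 2 rose and the same 2 fell in wild-type livers, where 43.6% were. At 12 h, 3 members rose (Ccne1, Ccne2 and Myc) and Ccnd3 fell in Adamts12-/- livers, against 46.7% of all genes called. In wild-type livers at 12 h 2 rose (Ccne2 and Myc) and Ccnd3 fell, against 58.4% of all genes. At 24 h, 5 members rose in Adamts12-/- livers, every one but Ccnd3, against 44.1% of all genes, and the same 5 rose in wild-type livers, against 51.2%. At 7 days limma called 0 members in Adamts12-/- livers (0.694% of all genes called) and 0 in wild-type livers (0.055%), and 0 members had an unadjusted p under 0.05 in either. With so many genes called at 4 to 24 h, the counts of members called are read here for their direction and size only. Over all genes the median absolute log2 difference at 4, 12 and 24 h was 0.41, 0.54 and 0.44 in Adamts12-/- livers. In wild-type livers it was 0.45, 0.62 and 0.51. The CCl4 and vehicle ranges did not overlap for 3, 4 and 4 of 6 members at 4, 12 and 24 h in Adamts12-/- livers, where this held for 30.6%, 36.2% and 22.6% of all genes, and for 4, 3 and 4 members in wild-type livers, where it held for 34.6%, 37.9% and 30.3%. The 12 h result in Adamts12-/- livers rests on leaving out 2 libraries by their profiles. The left-out CCl4 and vehicle libraries had 86.0 and 6266 normalized counts for Myc, and 233 and 311 for Ccnd2. For Ccne1 they had 41.2 and 61.8, and for Ccne2 44.9 and 95.1. With them the ranges of all 4 members overlap. With all 80 libraries, 1 member (Myc, at 3.25, adjusted p = 0.00344) was called in Adamts12-/- livers at 12 h, and Ccnd3 was at -0.23 (adjusted p = 0.308), Ccne1 at 0.96 (0.0659) and Ccne2 at 0.77 (0.197). In bulk tissue such as this, fewer cells of a type and less RNA per cell cannot be told apart.

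**Figure D1:**
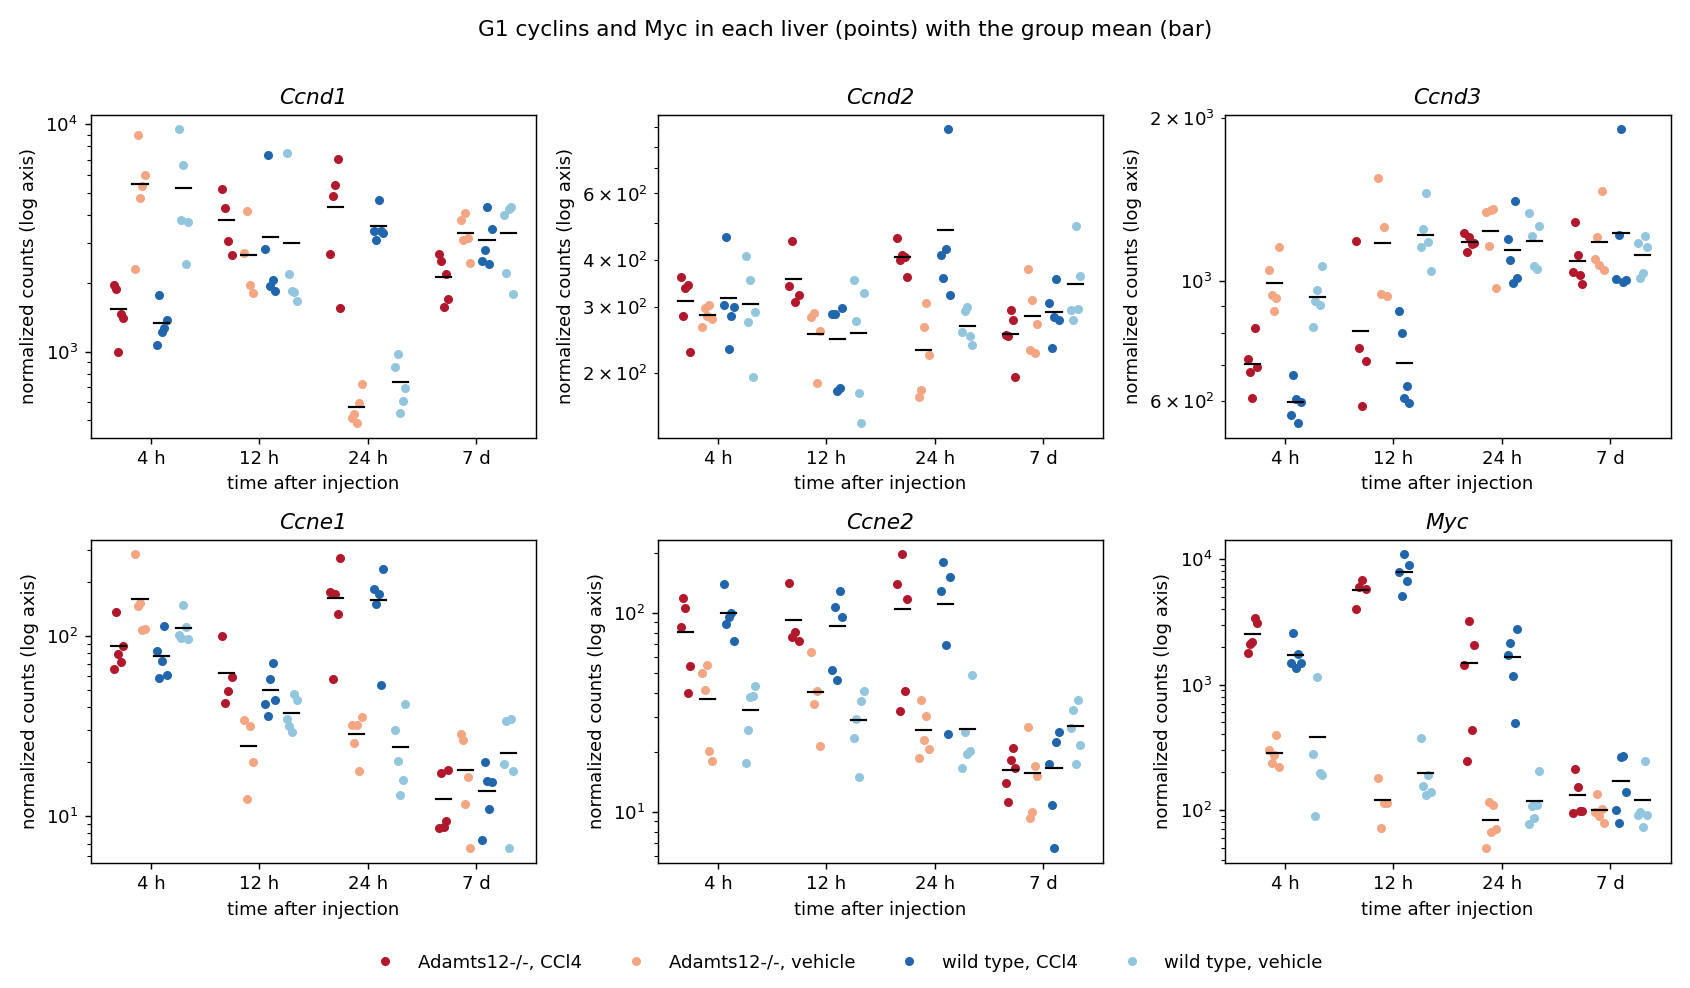
Normalized counts of each of the 6 genes (log axis) in every liver (points) with the group mean (bar), by time after injection, for Adamts12-/- CCl4, Adamts12-/- vehicle, wild-type CCl4 and wild-type vehicle livers. Myc is highest in the CCl4 livers of 12 h, Ccnd1 is lowest in the vehicle livers of 24 h, and Ccne1 is lowest at 7 days.

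Myc rose in CCl4 livers at 4, 12 and 24 h in both genotypes and was highest at 12 h. At 4 h Adamts12-/- mice had 1773, 2104, 2168, 3402 and 3116 normalized counts in CCl4 livers, against 299, 235, 272, 399 and 221 in vehicle livers. At 12 h the values were 3979, 6035, 6843 and 5798 normalized counts in CCl4 livers, against 179, 71.2, 114 and 113 in vehicle livers. At 24 h they were 1439.7, 248, 3230.0, 435 and 2069 normalized counts in CCl4 livers, against 49.5, 116, 66.6, 110.2 and 70.4 in vehicle livers. The CCl4 livers lay above all vehicle livers at each of the 3 times, and at 24 h they ranged widely, with replicates 2 and 4 well below the others. The ratio of means was 8.81 at 4 h, 47.5 at 12 h and 18.0 at 24 h, and the log2 differences were 3.12 ± 0.45 (adjusted p = 4.39e-08), 5.60 ± 0.51 (adjusted p = 3.04e-14) and 3.67 ± 0.45 (adjusted p = 1.14e-09) by limma.

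Wild-type livers were also above vehicle at these times. At 4 h they had 1494, 2574, 1365, 1751 and 1489 normalized counts in CCl4 livers, against 281, 89.6, 1156, 196 and 191 in vehicle livers. At 12 h they had 7928, 5131, 10907, 6722 and 8926 normalized counts in CCl4 livers, against 373, 155, 132, 191 and 139.9 in vehicle livers. At 24 h they had 1726, 2127, 1176, 490.2 and 2774 normalized counts in CCl4 livers, against 77.5, 108, 86.0, 109 and 203 in vehicle livers. Here too every CCl4 liver lay above every vehicle liver at each time, although vehicle replicate 3 at 4 h came close to the lowest CCl4 liver, and CCl4 replicate 4 was the lowest at 24 h. The ratio of means was 4.53 at 4 h, 40 at 12 h and 14.2 at 24 h, and the log2 differences were 2.72 ± 0.45 (adjusted p = 8.82e-07), 5.38 ± 0.45 (adjusted p = 5.90e-16) and 3.68 ± 0.45 (adjusted p = 5.56e-10). At 7 days the ranges overlapped, at 94.6 to 212 in Adamts12-/- CCl4 livers against 78.6 to 134 in Adamts12-/- vehicle livers, and 79.0 to 269.5 in wild-type CCl4 livers against 73.2 to 247 in wild-type vehicle livers.

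Ccnd1, the D-type cyclin most used by hepatocytes, was below vehicle at 4 h and above it at 24 h. At 4 h the values in Adamts12-/- mice were 1961, 1889, 995, 1457 and 1412 normalized counts in CCl4 livers, against 2302, 9009, 4735, 5368 and 6002 in vehicle livers. In wild-type mice they were 1065, 1770.1, 1217, 1272 and 1384 normalized counts in CCl4 livers, against 9511, 3781, 6653, 2436 and 3715 in vehicle livers. All CCl4 livers lay below all vehicle livers in each genotype. The CCl4 mean was 0.281 times the vehicle mean in Adamts12-/- mice and 0.257 times in wild-type mice, with log2 differences of -1.74 ± 0.34 (adjusted p = 3.15e-05) and -1.81 ± 0.34 (adjusted p = 1.24e-05) by limma.

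At 24 h the order was turned. Adamts12-/- mice had 2701, 4822, 5416, 7026 and 1562 normalized counts in CCl4 livers, against 509, 532, 486, 595 and 718 in vehicle livers. Wild-type mice had 3406, 3108, 4647, 3379 and 3312 normalized counts in CCl4 livers, against 855, 979, 537, 604 and 694 in vehicle livers. Every CCl4 liver lay above every vehicle liver, and the vehicle livers were close together while Adamts12-/- CCl4 livers were spread. The ratio of means was 7.58 in Adamts12-/- and 4.87 in wild-type mice, with log2 differences of 2.75 ± 0.34 (adjusted p = 1.77e-09) and 2.30 ± 0.34 (adjusted p = 8.79e-08). At 12 h the groups overlapped, and limma gave 0.55 ± 0.39 (adjusted p = 0.246) in Adamts12-/- and 0.15 ± 0.34 (adjusted p = 0.734) in wild-type mice. LTO1, the gene on the other strand, averaged 511 normalized counts (SD 154.5) in Adamts12-/- CCl4 livers of 24 h against 420.5 (SD 39.7) in vehicle livers. In wild-type livers it averaged 734.5 (SD 467) against 424 (SD 34.5). At 4 h its means were 308 against 427 and 421 against 414. Whether its reads enter the Ccnd1 counts was not tested.

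The size of these Ccnd1 differences depends on the vehicle livers of each time, which differed between times. CCl4 livers of 24 h averaged 4305 ± 2179.5 in Adamts12-/- and 3570.2 ± 613 in wild-type mice (SD, n = 5 each). In Adamts12-/- vehicle livers the mean was 5483 ± 2418 at 4 h, 2660.0 ± 1074 at 12 h, 568 ± 93.3 at 24 h and 3317 ± 641 at 7 days (SD, n = 5, 4, 5 and 5). Wild-type vehicle livers averaged 5219 ± 2853, 3007 ± 2521, 734 ± 182 and 3319 ± 1212 at the same times (SD, n = 5 each). Against the vehicle mean over all 4 times, a comparator chosen after seeing the data, the Ccnd1 difference at 24 h was 0.79 in Adamts12-/- livers and 0.65 in wild-type livers, both still called. At 4 h it was -0.55 in Adamts12-/- livers, no longer called (adjusted p = 0.0858), and -0.77 in wild-type livers, still called. At 12 h it was 0.75 in Adamts12-/- livers, newly called by limma (adjusted p = 0.0272). In wild-type livers of 12 h it was 0.28, not called (adjusted p = 0.355). The labels do not give the hour of killing.

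The F test over the 4 times among vehicle livers called 4 members in Adamts12-/- livers (Ccnd1, Ccne1, Ccne2 and Myc; 41.7% of all genes called) and 3 in wild-type livers (Ccnd1, Ccne1 and Myc; 38.9% of all genes). The widest distance between time means was 3.15 for Ccnd1 and 3.16 for Ccne1 in Adamts12-/- vehicle livers on the log2 scale, and 2.70 and 2.44 in wild-type vehicle livers. These vehicle livers also enter the CCl4 comparisons, so the vehicle course is not independent of them. The wild-type Myc call (adjusted p = 0.0487) and the Adamts12-/- Ccne2 call (adjusted p = 0.0383) lay near the threshold, and leaving out any of several livers lost them. The Myc call was lost without any of the wild-type vehicle livers of 4 h replicates 1, 3 or 4, 12 h replicates 1, 2 or 4, 24 h replicates 1, 2, 3 or 4, 7 days replicates 1, 2, 3 or 5, with an adjusted p of 0.0528 to 0.235. The Ccne2 call was lost without any of the Adamts12-/- vehicle livers of 4 h replicates 1, 2 or 3, 12 h replicates 2 or 4, 7 days replicates 2, 3, 4 or 5, with an adjusted p of 0.0538 to 0.123. With all 80 libraries Myc was no longer called in either genotype (adjusted p = 0.0541 in Adamts12-/- and 0.382 in wild-type livers).

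Ccnd2, a D-type cyclin that binds the same kinases, was called higher at 24 h, by less than Ccnd1. At 24 h Adamts12-/- mice had 458, 400.1, 412, 406 and 360.1 normalized counts in CCl4 livers, against 173, 179.8, 265, 307 and 223 in vehicle livers. Wild-type mice had 410.3, 357, 426, 889.7 and 322 normalized counts in CCl4 livers, against 256, 292, 298, 249.8 and 237 in vehicle livers. The groups did not overlap in either genotype, and wild-type CCl4 replicate 4 stood far above the rest. That liver also stood apart in lymphocyte and erythroid markers, as given below. The log2 differences were 0.86 ± 0.21 (adjusted p = 6.19e-04) in Adamts12-/- and 0.75 ± 0.21 (adjusted p = 0.00203) in wild-type livers by limma. Without wild-type CCl4 replicate 4 the wild-type difference was 0.50 (adjusted p = 0.032). Without the wild-type mice numbered below 7000, which leaves 1 vehicle liver at 24 h that is taken to vary like the other groups, the wild-type difference was 0.92 (adjusted p = 0.0819). At 12 h all 4 Adamts12-/- CCl4 livers (309 to 449) lay above the Adamts12-/- vehicle livers (188 to 288), but the difference of 0.49 ± 0.23 missed the threshold (adjusted p = 0.0796), and in wild-type livers it was -0.01 ± 0.21 (adjusted p = 0.966). Against the vehicle mean over all 4 times, a comparator chosen after seeing the data, limma called the Adamts12-/- difference of 12 h. It was then 0.44 (adjusted p = 0.0306), and -0.24 (adjusted p = 0.199) in wild-type livers.

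Ccnd3, a D-type cyclin of broad use, was the member that fell at both early times. At 4 h Adamts12-/- mice had 718, 679.5, 608, 818 and 694 normalized counts in CCl4 livers, against 1049, 940.1, 879.5, 929 and 1156 in vehicle livers. Wild-type mice had 566, 669, 607, 547 and 597 normalized counts in CCl4 livers, against 822, 919.7, 961, 903 and 1066 in vehicle livers. All CCl4 livers lay below all vehicle livers in both genotypes at 4 h. The log2 differences were -0.49 ± 0.14 (adjusted p = 0.00338) in Adamts12-/- and -0.64 ± 0.14 (adjusted p = 1.10e-04) in wild-type livers. At 12 h Adamts12-/- mice had 1187, 753, 587 and 711 normalized counts in CCl4 livers, against 1552, 946, 1258 and 938 in vehicle livers, with CCl4 replicate 1 among the vehicle values, and wild-type mice had 879, 800.0, 607, 641 and 594 normalized counts in CCl4 livers, against 1155, 1245, 1453, 1181 and 1041 in vehicle livers, with no overlap. The 12 h differences were -0.55 ± 0.16 (adjusted p = 0.00256) and -0.80 ± 0.14 (adjusted p = 1.71e-06). In Adamts12-/- livers these falls were near the median absolute difference of all genes, 0.41 at 4 h and 0.54 at 12 h. In wild-type livers they were somewhat larger than that median, which was 0.45 and 0.62. At 24 h the CCl4 and vehicle ranges overlapped in both genotypes, with -0.05 ± 0.14 (adjusted p = 0.783) and -0.06 ± 0.14 (adjusted p = 0.723). Bysl, the gene on the other strand, averaged 1218 normalized counts at 12 h in Adamts12-/- CCl4 livers against 719 in Adamts12-/- vehicle livers, which is higher after CCl4.

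Ccne1, an activator of CDK2, was well above vehicle at 24 h in both genotypes. At 24 h Adamts12-/- mice had 174, 57.7, 170.4, 131 and 272 normalized counts in CCl4 livers, against 31.9, 25.5, 32.0, 17.7 and 35.2 in vehicle livers. Wild-type mice had 181, 149.7, 170.3, 53.5 and 236 normalized counts in CCl4 livers, against 29.9, 20.1, 13.1, 15.8 and 41.6 in vehicle livers. The groups did not overlap, although Adamts12-/- replicate 2 and wild-type replicate 4 were the lowest of the CCl4 livers. The ratio of means was 5.66 in Adamts12-/- and 6.56 in wild-type livers, with log2 differences of 2.33 ± 0.37 (adjusted p = 4.13e-07) and 2.64 ± 0.37 (adjusted p = 1.52e-08).

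At 12 h Ccne1 was called in Adamts12-/- livers, with 99.1, 42.4, 49.3 and 58.9 normalized counts in CCl4 livers, against 33.8, 12.4, 31.3 and 19.8 in vehicle livers. None of the livers kept overlapped there, and the difference was 1.34 ± 0.41 (adjusted p = 0.00514) by limma. In wild-type livers of 12 h the ranges overlapped, at 35.9 to 70.3 in CCl4 and 29.2 to 47.7 in vehicle livers, and the difference was 0.39 ± 0.37 (adjusted p = 0.368). At 4 h CCl4 livers were lower without reaching the threshold, at -0.81 ± 0.37 (adjusted p = 0.0724) in Adamts12-/- and -0.54 ± 0.37 (adjusted p = 0.244) in wild-type livers. The Adamts12-/- value passed with a pseudocount of 8 (adjusted p = 0.0365), in a fit to the groups of 4 h alone (0.0112) and without Adamts12-/- CCl4 4 h replicate 2 (0.0421). Ccne1 vehicle livers averaged 159.7 ± 71.8 at 4 h, 28.5 ± 7.0 at 24 h and 17.9 ± 9.5 at 7 days in Adamts12-/- mice (SD, n = 5 each), and 111 ± 21.6, 24.1 ± 11.7 and 22.2 ± 11.7 at those times in wild-type mice (SD, n = 5 each). Against the vehicle mean of all 4 times, chosen after seeing the data, the sign at 4 h turned and the gene was called higher, at 1.24 in Adamts12-/- livers and 1.03 in wild-type livers. At 7 days it was called lower, at -1.51 in Adamts12-/- livers and -1.41 in wild-type livers. The direction of Ccne1 at 4 h therefore depends on which vehicle livers it is set against.

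Ccne2, the other E-type cyclin, was above vehicle at 4, 12 and 24 h in both genotypes, at low counts. At 4 h Adamts12-/- mice had 85.1, 119.7, 106, 39.9 and 54.1 normalized counts in CCl4 livers, against 50.1, 41.2, 54.7, 20.4 and 18.0 in vehicle livers. Wild-type mice had 141, 88.9, 96.4, 101 and 72.9 normalized counts in CCl4 livers, against 17.6, 25.9, 37.8, 38.6 and 43.2 in vehicle livers. In wild-type mice the groups did not overlap at 4 h, while in Adamts12-/- mice replicates 4 and 5 of the CCl4 livers fell within the vehicle range. The log2 differences were 1.14 ± 0.41 (adjusted p = 0.0228) and 1.62 ± 0.41 (adjusted p = 8.68e-04) by limma. At 12 h none of the CCl4 livers kept overlapped the vehicle livers kept in either genotype. The differences were 1.23 ± 0.46 (adjusted p = 0.0232) and 1.51 ± 0.41 (adjusted p = 0.00131).

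At 24 h Ccne2 in Adamts12-/- mice had 139.9, 32.4, 198, 40.5 and 118 normalized counts in CCl4 livers, against 18.7, 36.6, 23.1, 30.4 and 20.8 in vehicle livers. Wild-type mice had 129.7, 182, 69.2, 24.7 and 152 normalized counts in CCl4 livers, against 16.6, 25.2, 19.6, 20.3 and 48.9 in vehicle livers. In each genotype the lowest CCl4 liver lay within the vehicle range, and Adamts12-/- CCl4 replicate 4 was only just above it. The differences were 1.71 ± 0.41 (adjusted p = 4.97e-04) and 1.87 ± 0.41 (adjusted p = 1.16e-04). Without the wild-type mice numbered below 7000 the wild-type value was 0.88 (adjusted p = 0.415), again with 1 vehicle liver left. The 4 and 12 h calls of Ccne2 in Adamts12-/- livers were lost on leaving out single libraries. The 4 h call was lost without CCl4 replicate 2 (adjusted p = 0.0767), CCl4 replicate 3 (0.0642), vehicle replicate 4 (0.0724) or vehicle replicate 5 (0.0902). The 12 h call was lost without CCl4 replicate 1 (0.0845) or vehicle replicate 5 (0.106). At 4 h Ints8, the gene on the other strand, averaged 635 normalized counts in Adamts12-/- CCl4 livers against 573 in Adamts12-/- vehicle livers. In wild-type livers it averaged 699 against 555. At 12 h its means were 569 against 542 and 501 against 512, and at 24 h 518 against 445 and 562.5 against 446. Mean Ints8 was thus higher after CCl4 at 4 and 24 h in both genotypes. In Adamts12-/- livers the gap was smaller than the SD of the CCl4 livers, 98.8 at 4 h and 94.6 at 24 h. Whether its reads enter the Ccne2 counts was not tested.

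**Figure D2:**
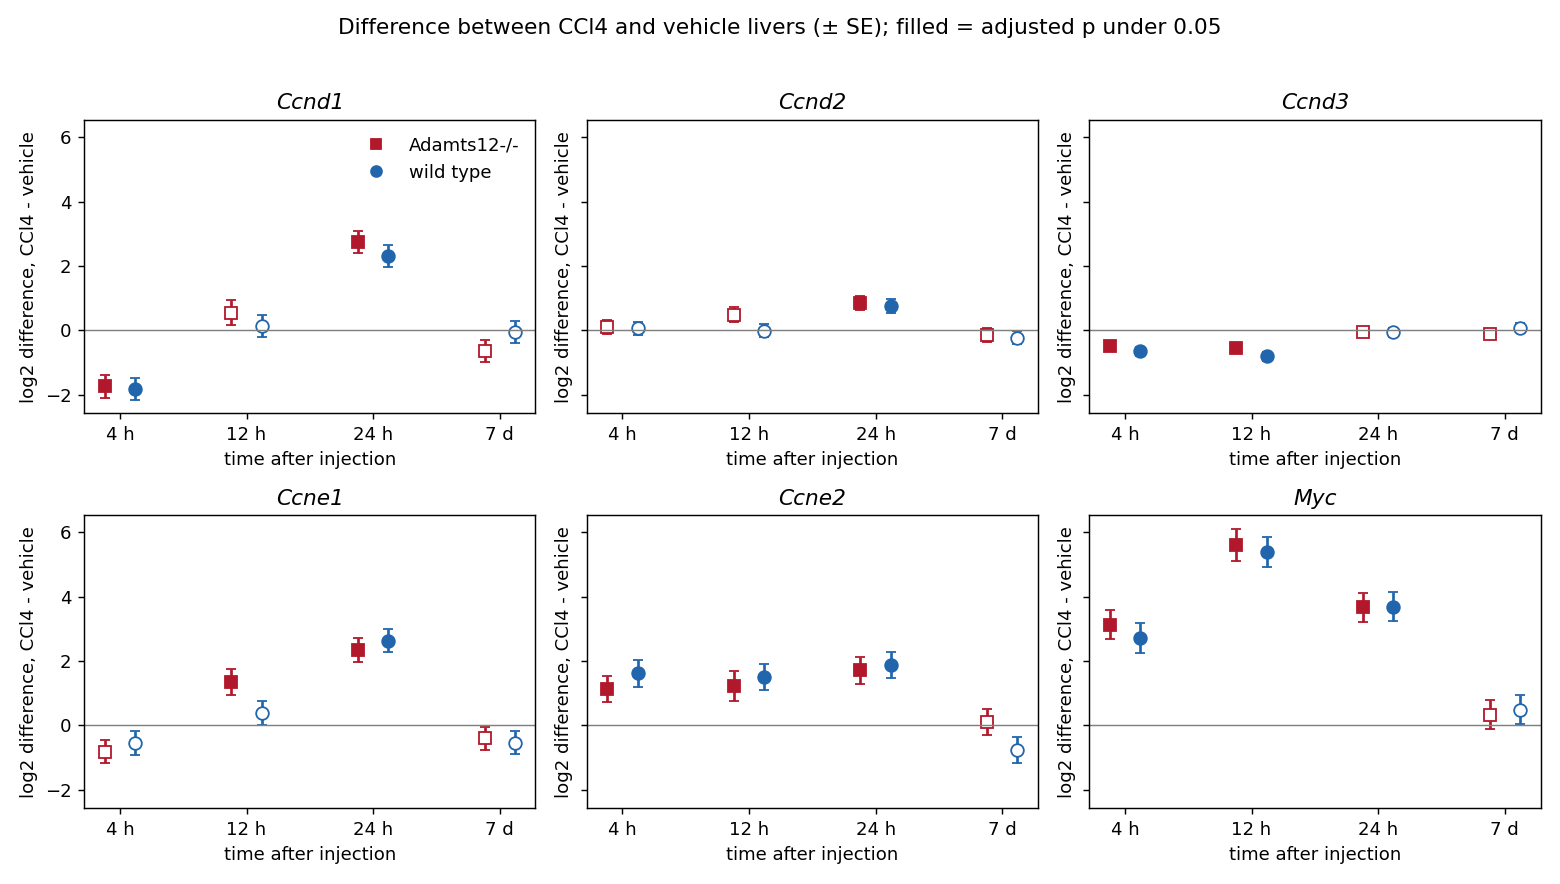
Log2 difference between CCl4 and vehicle livers (± SE, limma) for each gene, by time, with Adamts12-/- mice as squares and wild-type mice as circles. Filled symbols have an adjusted p under 0.05: Myc peaks at 12 h, with 5.60 in Adamts12-/- and 5.38 in wild-type mice, and Ccnd1 turns sign between 4 h and 24 h.

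Because D-type cyclins share one role, their levels were also set side by side per kb of transcript, with the length of the longest protein-coding transcript. This gives the share of Ccnd1 among the transcripts of the 3 D-type cyclins, compared by a two-sided exact permutation test over livers with p adjusted over the 8 pairs of groups. At 4 h the Ccnd1 share in Adamts12-/- mice was 51.3% ± 6.16 in CCl4 and 71.5% ± 10.9 in vehicle livers (SD, n = 5 each; adjusted exact p = 0.0476). In wild-type mice it was 51.6% ± 2.88 in CCl4 and 70.7% ± 10.5 in vehicle livers (SD, n = 5 each; adjusted exact p = 0.0212). Ccnd1 thus held a smaller share in CCl4 than in vehicle livers at 4 h in both genotypes. At 24 h the share was 61.2% ± 14.3 in CCl4 and 19.9% ± 4.72 in vehicle livers (SD, n = 5 each; adjusted exact p = 0.0212) for Adamts12-/- mice. Wild-type mice showed 60.7% ± 6.18 in CCl4 and 24.3% ± 3.48 in vehicle livers (SD, n = 5 each; adjusted exact p = 0.0212). Here the share was larger in CCl4 than in vehicle livers and the groups did not overlap. At 12 h it was 69.6% ± 3.53 in CCl4 and 53.3% ± 10.8 in vehicle livers (SD, n = 4 each; adjusted exact p = 0.0762) in Adamts12-/- and 65.8% ± 9.25 in CCl4 and 51.3% ± 14.6 in vehicle livers (SD, n = 5 each; adjusted exact p = 0.127) in wild-type mice, and at 7 days 50.2% ± 5.67 in CCl4 and 59.2% ± 5.52 in vehicle livers (SD, n = 5 each; adjusted exact p = 0.0508) in Adamts12-/- and 57.1% ± 3.98 in CCl4 and 58.6% ± 9.65 in vehicle livers (SD, n = 5 each; adjusted exact p = 0.865) in wild-type mice. In all, 4 of the 8 pairs passed. With 5 livers a group the smallest exact p before adjustment is 0.00794. Over the 4 times the mean vehicle share ran from 19.9% to 71.5% in Adamts12-/- and from 24.3% to 70.7% in wild-type livers. The mean CCl4 share ran from 50.2% to 69.6% and from 51.6% to 65.8%. The size and direction of these share differences therefore depend on the vehicle livers of each time.

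**Figure D3:**
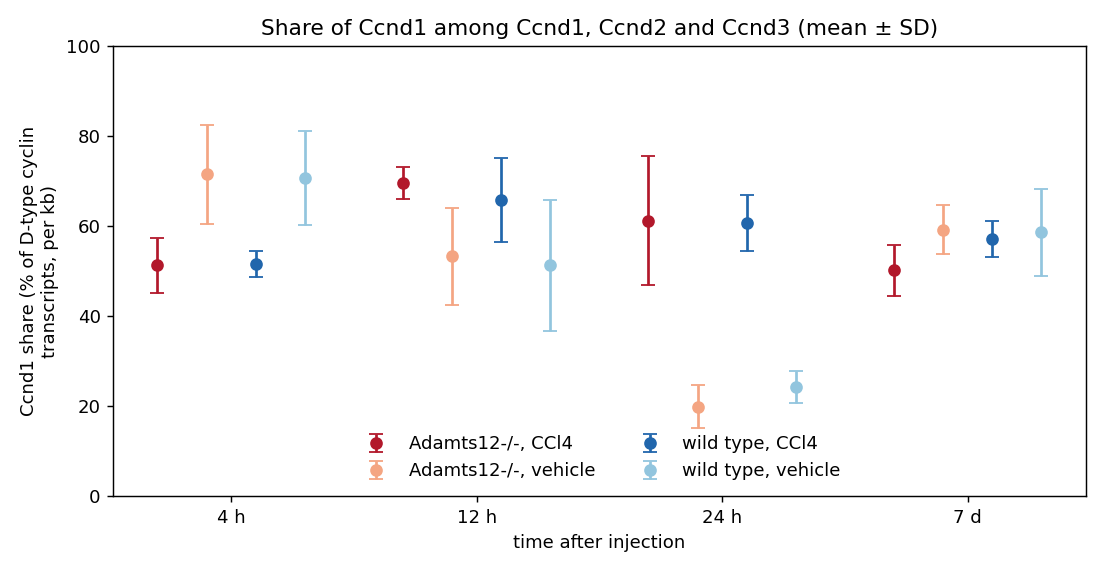
Share of Ccnd1 (%, mean ± SD over livers) among Ccnd1, Ccnd2 and Ccnd3 transcripts per kb, by time after injection, for Adamts12-/- CCl4, Adamts12-/- vehicle, wild-type CCl4 and wild-type vehicle livers. At 24 h the CCl4 livers are at 61.2% in Adamts12-/- and 60.7% in wild-type mice, against 19.9% and 24.3% in the vehicle livers, the lowest of all groups.

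Ccne1 and Ccne2 were compared likewise, as the share of Ccne1 in their summed transcripts per kb. At 4 h the Ccne1 share in Adamts12-/- mice was 62.6% ± 9.35 in CCl4 and 86.7% ± 4.06 in vehicle livers (SD, n = 5 each; adjusted exact p = 0.0318). In wild-type mice it was 53.5% ± 6.12 in CCl4 and 83.7% ± 4.74 in vehicle livers (SD, n = 5 each; adjusted exact p = 0.0318). The groups did not overlap in either genotype. In the other 6 pairs the exact test found no difference past the threshold, with CCl4 shares from 47.7% to 71.0% and vehicle shares from 47.7% to 66.6%. The vehicle shares of 4 h were thus above those of the other times, so the 4 h difference depends on the vehicle livers of that time.

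The steps between neighbouring times were tested as the change of the CCl4-minus-vehicle difference. Steps that meet at a time share the livers of that time, so they are not independent of each other. A step can come from the CCl4 livers, the vehicle livers or both. Going to 12 h over 4 h, 3 members stepped up in Adamts12-/- livers (22.1% of all genes called): Ccnd1 by 2.29 ± 0.52 (adjusted p = 7.60e-04), Ccne1 by 2.16 ± 0.55 (adjusted p = 0.00278) and Myc by 2.48 ± 0.68 (adjusted p = 0.0053). Mean Ccne1 in Adamts12-/- mice fell from 87.7 to 62.4 normalized counts in CCl4 livers and from 159.7 to 24.3 in vehicle livers. Its upward step thus came from the larger fall in the vehicle livers. In wild-type livers 2 members stepped up (30.6% of all genes), Ccnd1 by 1.96 ± 0.49 (adjusted p = 0.00141) and Myc by 2.67 ± 0.64 (adjusted p = 9.43e-04). With all 80 libraries the Adamts12-/- count was 2, and the Adamts12-/- Myc step was 0.13 (adjusted p = 0.958).

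Going to 24 h over 12 h, 1 member stepped up in Adamts12-/- livers, Ccnd1 by 2.20 ± 0.52 (adjusted p = 0.0053), against 5.06% of all genes called. In wild-type livers 3 stepped up, against 12.6% of all genes: Ccnd1 by 2.16 ± 0.49 (adjusted p = 0.00165), Ccnd3 by 0.73 ± 0.20 (adjusted p = 0.00881) and Ccne1 by 2.25 ± 0.52 (adjusted p = 0.00206). Mean Ccnd1 in CCl4 livers of 12 and 24 h was 3810.5 and 4305 normalized counts in Adamts12-/- and 3205 and 3570.2 in wild-type mice. In vehicle livers the mean fell from 2660.0 to 568 and from 3007 to 734. The Ccnd1 step thus lay mostly in the vehicle livers in both genotypes. The Myc step was downward without passing the threshold, at -1.94 ± 0.68 (adjusted p = 0.081) in Adamts12-/- and -1.70 ± 0.64 (adjusted p = 0.0657) in wild-type livers. The Adamts12-/- Myc step passed without Adamts12-/- CCl4 12 h replicate 1 (-2.10, adjusted p = 0.0456), which also brought in Ccnd3 (0.0187) for a count of 3. It passed as well without Adamts12-/- CCl4 24 h replicate 3 (-2.36, adjusted p = 0.0188) or replicate 5 (-2.20, adjusted p = 0.0381), for counts of 2. The wild-type Myc step passed without wild-type CCl4 24 h replicate 5 (-1.94, adjusted p = 0.0384), CCl4 12 h replicate 2 (-1.84, 0.0464) or vehicle 12 h replicate 1 (-1.96, 0.0326). The wild-type Ccnd2 step, 0.76 ± 0.30 (adjusted p = 0.076), passed without CCl4 24 h replicate 5 (0.0426), which made the count 5, or without vehicle 12 h replicate 3 (0.0481) or 4 (0.0279). Without the mice numbered below 7000 the wild-type count was 1.

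Going to 7 days over 24 h, 5 members stepped down in Adamts12-/- livers (30% of all genes called) and the same 5, every one but Ccnd3, stepped down in wild-type livers (38.4%). In Adamts12-/- livers the steps were -3.39 ± 0.49 (adjusted p = 2.49e-07) for Ccnd1, -2.74 ± 0.52 (adjusted p = 4.39e-05) for Ccne1 and -3.33 ± 0.64 (adjusted p = 5.35e-05) for Myc. Ccne2 stepped by -1.60 ± 0.58 (adjusted p = 0.0302) in Adamts12-/- livers, a call lost without any of Adamts12-/- CCl4 24 h replicate 1 (0.0678), 3 (0.0899) or 5 (0.0592), vehicle 24 h replicate 1 (0.0532), CCl4 7 day replicate 2 (0.0576) or vehicle 7 day replicate 1 (0.0727). In wild-type livers they were -2.34 ± 0.49 (adjusted p = 1.21e-04) for Ccnd1, -3.16 ± 0.52 (adjusted p = 2.54e-06) for Ccne1, -2.64 ± 0.58 (adjusted p = 2.67e-04) for Ccne2 and -3.20 ± 0.64 (adjusted p = 6.56e-05) for Myc. Ccnd2 stepped by -1.003 ± 0.30 (adjusted p = 0.00719) in Adamts12-/- and -0.97 ± 0.30 (adjusted p = 0.00696) in wild-type livers. Mean Ccnd1 in CCl4 livers fell from 4305 to 2133 normalized counts in Adamts12-/- and from 3570.2 to 3110 in wild-type mice. In vehicle livers it rose from 568 to 3317 and from 734 to 3319, so the vehicle livers carried much of the Ccnd1 step. Without the mice numbered below 7000, 0 of the 5 wild-type steps passed, with 1 CCl4 liver left at 7 days and 1 vehicle liver left at 24 h.

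No member's answer to CCl4 was shown to differ between the genotypes. The difference between the Adamts12-/- and wild-type CCl4 effects was called for 0 of 6 members by limma at 4, 12, 24 h and 7 days, where 0.00687%, 0%, 0% and 0.00687% of all genes were called, and 0 members had an unadjusted p under 0.05 at any of the 4 times. The widest gap was Ccne1 at 12 h, at 0.95 ± 0.55 (95% interval -0.14 to 2.05). The Myc difference was 0.40 ± 0.64 (95% interval -0.87 to 1.68) at 4 h, 0.22 ± 0.68 (95% interval -1.13 to 1.57) at 12 h and -0.02 ± 0.64 (95% interval -1.30 to 1.26) at 24 h. For Ccnd1 it was 0.07 ± 0.49 (95% interval -0.90 to 1.04) at 4 h and 0.45 ± 0.49 (95% interval -0.52 to 1.42) at 24 h. Each of these intervals holds 0, and their width means that they do not show that the genotypes act alike.

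Among CCl4 livers alone, Adamts12-/- against wild type, 0 of 6 members were called at 4, 12, 24 h or 7 days, where 0.584%, 0.0206%, 0.0137% and 0% of all genes were. Ccnd2 at 12 h was the 1 case with an unadjusted p under 0.05. Its levels were 341, 449, 309 and 322 normalized counts in Adamts12-/- CCl4 livers and 286, 287, 179, 182 and 297 in wild-type CCl4 livers. The log2 difference was 0.55 ± 0.22 (95% interval 0.11 to 0.99), short of the threshold after adjustment (limma, adjusted p = 0.454). All 4 Adamts12-/- livers lay above all 5 wild-type livers there. For Myc the difference was 0.53 ± 0.45 (95% interval -0.37 to 1.43) at 4 h and -0.50 ± 0.45 (95% interval -1.40 to 0.40) at 24 h. Among vehicle livers, over the 4 times together, Adamts12-/- against wild type called 0 of 6 members (0.282% of all genes), with 0 at an unadjusted p under 0.05. The vehicle differences lay between -0.29 for Myc and 0.03 for Ccnd3.

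Genes around the members were followed through 7 lists, chosen with earlier results of these data known. Shares of a list called are read beside those of all genes, which were 38.8%, 46.7% and 44.1% at 4, 12 and 24 h in Adamts12-/- livers and 43.6%, 58.4% and 51.2% in wild-type livers. Of 20 Myc targets of ribosome biogenesis and growth, 14 rose at 4 h, 20 at 12 h and 19 at 24 h in Adamts12-/- livers, and 18, 20 and 20 in wild-type livers, with 0 falling. The lowest of these shares, 70.0% at 4 h in Adamts12-/- livers, was above that of all genes at every one of these times. Rises and falls in all 7 lists are against the vehicle livers of the same time. The F test over the 4 times among vehicle livers called 15 of the 20 Myc targets in each genotype. It called 41.7% of all genes in Adamts12-/- and 38.9% in wild-type livers. Their median log2 difference was 0.72, 1.69 and 1.15 in Adamts12-/- livers and 0.83, 1.78 and 1.39 in wild-type livers, beside a median over all genes between -0.05 and 0.04 in these contrasts. At 4 h Nop58, a protein of small nucleolar ribonucleoproteins, rose by 1.73 ± 0.20 in Adamts12-/- livers and 2.44 ± 0.20 in wild-type livers. At 12 h Ncl (nucleolin) rose by 2.22 ± 0.19 and 2.43 ± 0.17, and at 24 h Odc1, the first enzyme of polyamine synthesis and an early known Myc target, rose by 1.97 ± 0.18 and 1.91 ± 0.18.

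Among 8 kinase partners and regulators of the G1 cyclins, 6 rose at 12 h and 5 at 24 h in each genotype, none fell at those times, and at 4 h 3 rose and 4 fell in Adamts12-/- livers and 3 rose and 3 fell in wild-type livers. The shares called at 4, 12 and 24 h were 87.5%, 75.0% and 62.5% in Adamts12-/- and 75.0%, 75.0% and 62.5% in wild-type livers. Cdc25a, the phosphatase that removes inhibitory phosphates from CDK2, rose at all 3 times, by 1.08 ± 0.19, 1.26 ± 0.21 and 1.23 ± 0.19 in Adamts12-/- livers and by 1.17 ± 0.19, 1.26 ± 0.19 and 1.63 ± 0.19 in wild-type livers. Cdk4, the kinase of the D-type cyclins, rose by 0.69 ± 0.15 in Adamts12-/- and 0.87 ± 0.14 in wild-type livers at 12 h. Cks1b, a small CDK subunit that helps SCF ligases find p27, rose by 1.25 ± 0.27 and 1.98 ± 0.24 at that time. Of the 6 CDK inhibitors, 2 rose and 2 fell at 4 and 12 h in both genotypes. At 24 h 0 rose and 2 fell in Adamts12-/- livers, and 2 rose and 2 fell in wild-type livers. The shares called at 4, 12 and 24 h were 66.7%, 66.7% and 33.3% in Adamts12-/- livers and 66.7% at each time in wild-type livers. Cdkn1a, which encodes p21, rose by 5.97 ± 0.45 at 4 h in Adamts12-/- livers and 6.12 ± 0.45 in wild-type livers. Cdkn1c, which encodes p57, rose by 3.51 ± 0.37 and 3.56 ± 0.33 at 12 h. Cdkn2c, which encodes the INK4 inhibitor p18, fell at every one of these times, for example by 0.97 in Adamts12-/- and 1.53 in wild-type livers at 12 h.

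Of 15 E2F targets of S phase entry, 9 rose and 1 fell at 24 h in Adamts12-/- livers and 8 rose and 1 fell in wild-type livers. At 12 h 4 rose and 0 fell in Adamts12-/- livers, and 5 rose and 4 fell in wild-type livers. At 4 h 2 rose and 3 fell in Adamts12-/- livers, and 3 rose and 3 fell in wild-type livers. The shares called at 4, 12 and 24 h were 33.3%, 26.7% and 66.7% in Adamts12-/- livers and 40.0%, 60.0% and 60.0% in wild-type livers, so most lay near or below the shares of all genes. Over the 4 times among vehicle livers, the F test called 13 of the 15 in Adamts12-/- livers (41.7% of all genes). In wild-type livers it called 14 (38.9% of all genes). The rises and falls of these targets therefore also depend on the vehicle livers of each time. Cdt1, a licensing factor that loads the replicative helicase, rose by 2.41 ± 0.33 at 12 h and 2.33 ± 0.29 at 24 h in Adamts12-/- livers, and by 2.98 ± 0.29 and 2.17 ± 0.29 in wild-type livers. Mcm2, a subunit of that helicase, rose by 1.77 ± 0.24 and 1.19 ± 0.24 at 24 h. Tk1, thymidine kinase of the salvage pathway, fell by 1.12 at 4 h and 1.57 at 24 h in Adamts12-/- livers, and by 1.56 at 4 h, 1.14 at 12 h and 2.04 at 24 h in wild-type livers. Mki67, a protein of cycling cells, was at -0.29 at 12 h in Adamts12-/- livers (adjusted p = 0.661) and fell by 1.41 in wild-type livers. Cdt1 and Mki67 thus moved in opposite directions at 12 h in wild-type livers.

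Among 13 genes of the RB family and E2F factors, 5 rose and 1 fell at 4 h, 5 rose and 4 fell at 12 h and 4 rose and 2 fell at 24 h in Adamts12-/- livers. In wild-type livers 6 rose and 2 fell, 6 rose and 5 fell, and 6 rose and 2 fell at these times. The shares called were 46.2%, 69.2% and 46.2% in Adamts12-/- and 61.5%, 84.6% and 61.5% in wild-type livers. Rbl2, which encodes the pocket protein p130 of resting cells, fell at 4, 12 and 24 h, by 1.41 in Adamts12-/- and 1.45 in wild-type livers at 12 h. E2f4, its usual E2F partner, rose by 1.18 ± 0.15 and 1.37 ± 0.13. Of 16 genes of G1 cyclin and Myc turnover, 6 rose and 1 fell at 4 h, 7 rose and 2 fell at 12 h and 4 rose and 4 fell at 24 h in Adamts12-/- livers, against 7 and 1, 8 and 2, and 5 and 3 in wild-type livers. The shares called, 43.8%, 56.2% and 50.0% in Adamts12-/- and 50.0%, 62.5% and 50.0% in wild-type livers, lay near those of all genes. Fbxo31, an F-box protein that binds cyclin D1, fell by 1.92 at 24 h in Adamts12-/- and 1.76 in wild-type livers. Fbxw7, the F-box protein for cyclin E and Myc, rose at 24 h by 0.36 ± 0.14 in Adamts12-/- and 0.73 ± 0.14 in wild-type livers. Of 12 Myc partners and antagonists, 3 rose and 1 fell at 4 h, 4 rose and 4 fell at 12 h and 3 rose and 4 fell at 24 h in Adamts12-/- livers, and 2 and 1, 6 and 4, and 5 and 3 in wild-type livers. The shares called were 66.7% and 58.3% at 12 and 24 h in Adamts12-/- and 83.3% and 66.7% in wild-type livers, and at 4 h both genotypes were below the shares of all genes. Zbtb17, the Myc partner Miz-1, rose by 1.76 ± 0.16 and 1.57 ± 0.15 at 12 h, while Mxi1, a Max-binding antagonist of Myc, fell by 0.79 and 0.68. At 7 days limma called 0 genes of these lists in either genotype, with 19 genes at an unadjusted p under 0.05 in Adamts12-/- and 24 in wild-type livers. With quantile normalization 2 E2F targets were called lower at 7 days in Adamts12-/- livers. No called gene of the 7 lists turned sign with quantile normalization, but counts moved in both directions. At 4 h in Adamts12-/- livers 3 in place of 5 RB and E2F genes rose, and 3 in place of 1 fell both among the turnover genes and among the Myc partners and antagonists. At 4 h in wild-type livers 5 in place of 7 turnover genes rose and 2 in place of 1 fell, 2 in place of 1 Myc partners and antagonists fell, 2 in place of 3 E2F targets rose, and 14 in place of 18 Myc targets rose. At 12 h 4 in place of 6 kinase partners rose in Adamts12-/- livers, and 3 in place of 6 RB and E2F genes rose in wild-type livers. The other counts in these lists at 4, 12 and 24 h moved by 0 or 1.

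**Figure D4:**
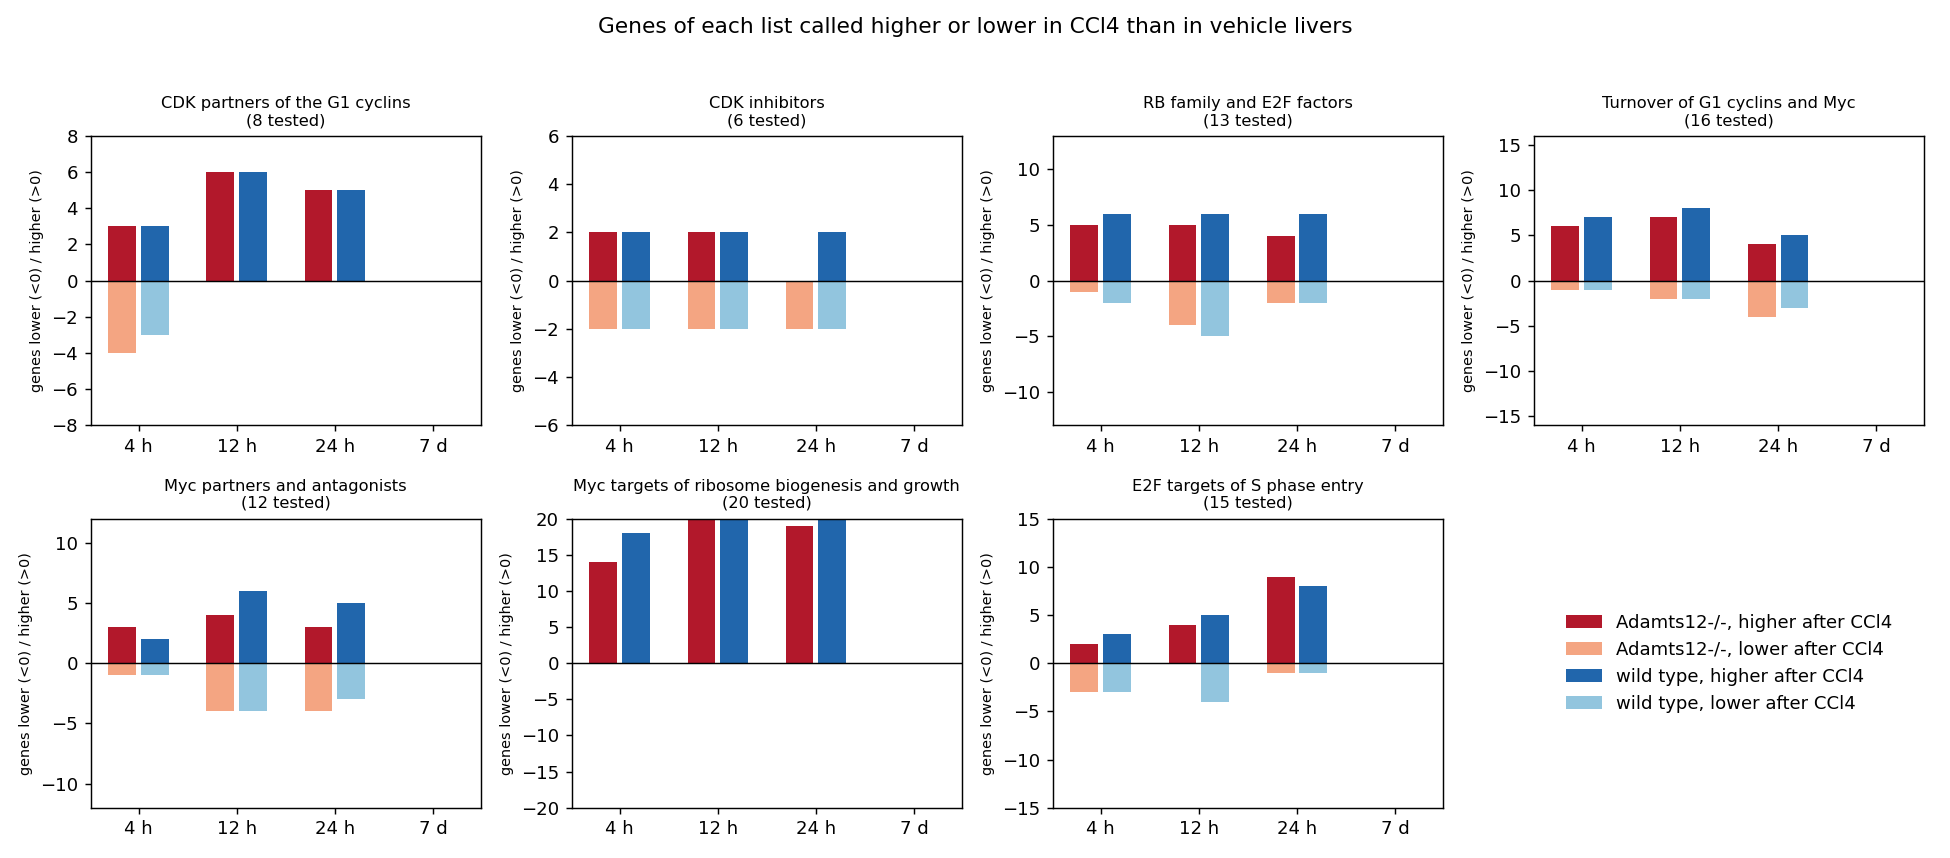
Genes of each of the 7 lists called higher (above 0) or lower (below 0) in CCl4 than in vehicle livers by limma, by time, with Adamts12-/- left of wild-type bars. All 20 Myc targets are higher at 12 h in both genotypes, and no gene of a list is called at 7 days on the deposited scaling.

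Cell type markers moved alongside the members. Of 7 hepatocyte markers, 7 fell at 12 h in both genotypes, but with quantile normalization 2 did in Adamts12-/- livers, where Apob turned sign, and 3 in wild-type livers. At 24 h 5 fell in Adamts12-/- and 4 in wild-type livers, against 2 and 1 with quantile normalization, where Ttr turned sign in Adamts12-/- livers and Apob and Serpina1a did in wild-type livers. Their summed level at 12 h was 1868533 to 3322181 normalized counts in Adamts12-/- CCl4 livers against 4164883 to 4952021 in Adamts12-/- vehicle livers, and 1490415 to 3025309.7 in wild-type CCl4 against 3995343 to 5404649.8 in wild-type vehicle livers. No hepatocyte marker was at 0 in any library. At 4 h 1 hepatocyte marker rose and 2 fell in each genotype. Of 8 monocyte and macrophage markers, 2 rose at 12 h in each genotype, and at 24 h 7 rose in Adamts12-/- and 6 in wild-type livers. Their summed level at 24 h was 5469 to 19532 in Adamts12-/- CCl4 against 1251 to 3524 in Adamts12-/- vehicle livers, and 16558 to 24334 in wild-type CCl4 against 3770.0 to 8653 in wild-type vehicle livers. Of 8 sinusoidal endothelial markers, 3 fell in Adamts12-/- and 8 in wild-type livers at 12 h, and 0 and 4 at 24 h. Of 8 Kupffer cell markers, 3 fell in Adamts12-/- and 6 in wild-type livers at 12 h, and at 24 h 1 rose and 2 fell in Adamts12-/- and 3 fell in wild-type livers. Of 8 stellate cell markers, 0 fell in Adamts12-/- and 2 in wild-type livers at 12 h, and at 24 h 2 rose in Adamts12-/- livers, and 2 rose and 1 fell in wild-type livers. Of 6 neutrophil markers, 1 fell at 12 h in each genotype and 1 at 4 h in wild-type livers, and at 24 h 2 rose in each, with 1 falling in Adamts12-/- livers. Of 6 erythroid markers, 0 fell in Adamts12-/- and 2 in wild-type livers at 4 h, and 1 fell in each genotype at 12 and at 24 h, with 1 rising in Adamts12-/- livers at 24 h. Of 8 cholangiocyte markers, 2 rose in Adamts12-/- and 3 in wild-type livers at 4 h, 3 rose and 1 fell in each at 12 h, and at 24 h 2 rose and 1 fell in Adamts12-/- livers and 1 rose and 1 fell in wild-type livers. Among them Sox9, a transcription factor of bile duct cells, rose by 3.39 ± 0.35 in Adamts12-/- and 3.37 ± 0.35 in wild-type livers at 4 h. Of 8 T and NK cell markers, Cd8a rose at 12 h in Adamts12-/- livers, and limma called 0 of 8 B cell markers in any of the 8 comparisons, with 2 at an unadjusted p under 0.05 at 4 h in wild-type livers and 0 in the other comparisons. With quantile normalization 2 T and NK cell markers rose at 12 h and 1 at 24 h in wild-type livers, and 5 in place of 3 endothelial markers fell at 12 h in Adamts12-/- livers. Within the wild-type CCl4 group of 24 h, replicate 4 stood apart: its B cell markers summed to 5879 normalized counts, against 235 to 433 in the other livers of that group, its T and NK cell markers to 854, against 117 to 223, its stellate cell markers to 23418, against 4842 to 11955, and its erythroid markers to 44891, against 2727 to 7851. The part of these changes in the members' differences was not tested.

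At 24 h the CCl4 livers were spread, and each liver's values are given. In Adamts12-/- replicates 1 to 5, Myc was 1439.7, 248, 3230.0, 435 and 2069, Ccne1 was 174, 57.7, 170.4, 131 and 272, Ccne2 was 139.9, 32.4, 198, 40.5 and 118 and Ccnd1 was 2701, 4822, 5416, 7026 and 1562 normalized counts. In the same order the 8 monocyte and macrophage markers summed to 18709, 6585, 17871, 5469 and 19532, and within that list Lgals3 was 9319, 674, 7648, 697 and 7979.5 while Ccr2, a chemokine receptor of monocytes, was 118, 147, 97.5, 93.9 and 194.5. Mki67 was 75.7, 43.3, 86.6, 91.7 and 102, and Alb, which encodes albumin, was 1185074, 2372573, 1197400.1, 2385607 and 1662449. Replicates 2 and 4 were thus low in Myc, Ccne2, Lgals3 and the summed macrophage markers and high in Alb, while their Ccnd1 was not low, and Ccr2 did not follow Lgals3, with replicate 2 second highest. In wild-type replicates 1 to 5, Myc was 1726, 2127, 1176, 490.2 and 2774, Ccne1 was 181, 149.7, 170.3, 53.5 and 236, Ccne2 was 129.7, 182, 69.2, 24.7 and 152 and Ccnd1 was 3406, 3108, 4647, 3379 and 3312. The monocyte and macrophage markers summed to 24334, 18288, 16558, 23604 and 23013, with Lgals3 at 11663, 9759, 7127, 2123 and 11066 and Ccr2 at 179, 153.5, 237, 463 and 109. Mki67 was 68.2, 149.7, 124.5, 279 and 96.5, Ccna2, a cyclin of S phase and G2, was 20.1, 30.5, 50.0, 76.9 and 25.8, Cdk1, the kinase of mitotic entry, was 31.3, 58.8, 62.8, 96.1 and 49.6, and Alb was 1564999, 1188497, 1542639, 2112920.3 and 1679168 in that order. Replicate 4 was the lowest in Myc, Ccne1, Ccne2 and Lgals3 and the highest in Alb, Ccnd2, Ccr2, Mki67, Ccna2 and Cdk1, with Ccnd1 near the other livers and the summed macrophage markers within their range. Without it the wild-type differences at 24 h were 2.32 for Ccnd1, 0.50 for Ccnd2, 2.98 for Ccne1, 2.33 for Ccne2 and 4.07 for Myc, all still called. These livers and genes were singled out after their values were seen, and no test was made on them.

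**Figure D5:**
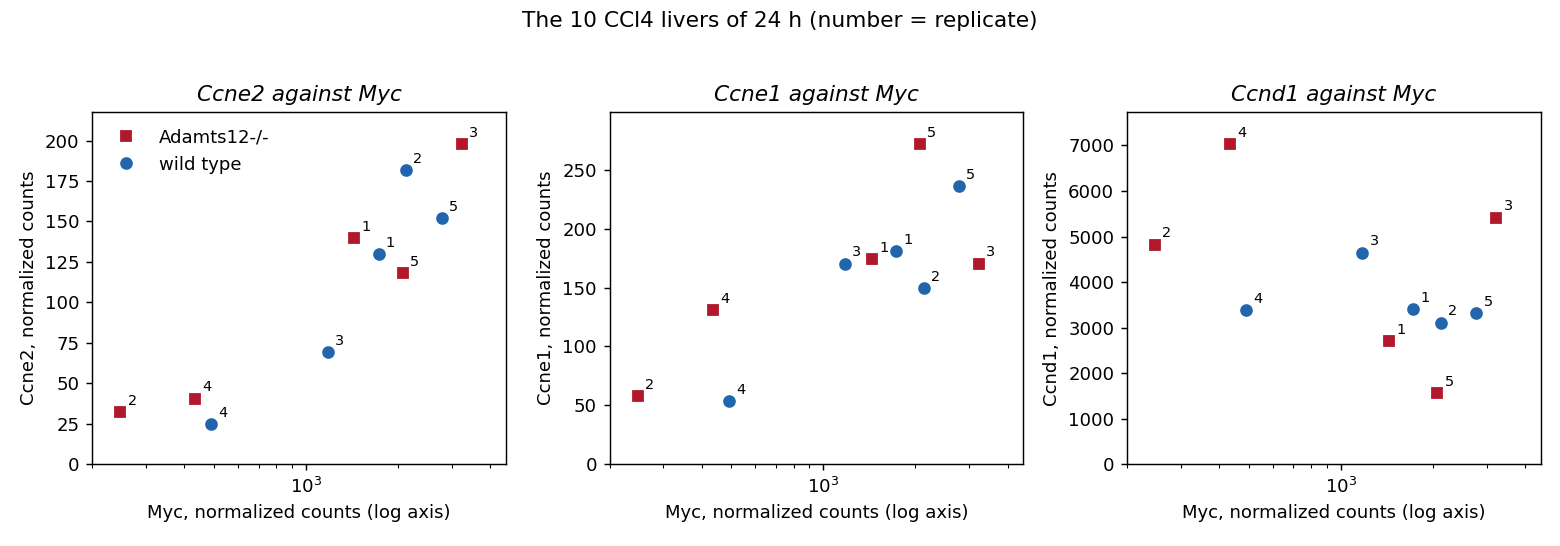
Ccne2, Ccne1 and Ccnd1 against Myc (log axis), all in normalized counts, in the 10 CCl4 livers of 24 h, with Adamts12-/- livers as squares, wild-type livers as circles and the replicate number beside each. Adamts12-/- replicates 2 and 4 and wild-type replicate 4 lie at the low end of both Myc and Ccne2, with Ccne2 of 32.4, 40.5 and 24.7, while their Ccnd1 is not low.

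The levels of the members over the 16 groups were then put in order, lowest to highest by mean of log2 values. Ccnd1 ran from Adamts12-/- vehicle livers of 24 h to Adamts12-/- vehicle livers of 4 h, over 3.15 on the log2 scale, and 2 of its 15 steps between neighbouring groups were above both groups' SD. Myc ran from Adamts12-/- vehicle livers of 24 h to wild-type CCl4 livers of 12 h, over 6.59, with 4 of 15 such steps. Ccne1 ran from Adamts12-/- CCl4 livers of 7 days to Adamts12-/- vehicle livers of 4 h, over 3.57, with 2. Ccne2 ran from Adamts12-/- vehicle livers of 7 days to wild-type CCl4 livers of 4 h, over 2.66, with 1. Ccnd2 and Ccnd3 spanned 0.99 and 1.04 and had 0 such steps, so neighbours in their order do not differ beyond their spread. Between genes, levels are set side by side per kb of transcript. At 12 h the group means in Adamts12-/- CCl4 livers were 2423 for Myc, 1019 for Ccnd1, 383 for Ccnd3, 56.1 for Ccnd2, 31.2 for Ccne1 and 30.8 for Ccne2, in normalized counts per kb. In Adamts12-/- vehicle livers of 12 h they were 51.0 for Myc, 711 for Ccnd1, 555 for Ccnd3, 40.1 for Ccnd2, 12.2 for Ccne1 and 13.4 for Ccne2. Myc was thus above the D-type cyclins in the CCl4 livers and close to Ccnd2 in the vehicle livers.

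The genes whose means over the 16 groups followed each member most closely were found by Pearson correlation over those group means, a description without a test, since groups share vehicle and CCl4 courses. For Myc they were Snhg1 (0.98), Mapk6 (0.98), Eif4e2 (0.98). For Ccne2 they were Tmtc3 (0.98), Dnajc5 (0.98), Prkaa1 (0.98). For Ccne1 they were Sik1 (0.95), Ankrd12 (0.93), Gng12 (0.92). For Ccnd1 the nearest genes were Eif1ax (0.76), Dhx35 (0.75), Ces2c (0.73). For Ccnd2 they were Cxcl16 (0.91), Cnn2 (0.90), Plekho2 (0.89), and for Ccnd3 Slc29a3 (0.95), Pfkl (0.95), Prkaca (0.94). The Ccnd1 values were the lowest of the 6 sets.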

How the data were processed

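Transcript levels of 80 mouse livers were measured by bulk RNA sequencing. The authors deposited one table of normalized counts, a signal in which each library's reads are divided by a size factor; reads were handled with STAR, HTSeq and DESeq2 against GRCm38, per the submitters' processing notes. In every library 100.0% of the values were whole multiples of one step (tolerance 0.01), so the depth could be read from the step. The strand setting, annotation release and tool versions are not given in the sources used here.

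The signal was taken as log2(value + 1). The filter asked for a value of 10 or more in 5 or more libraries, which 14558 of 14560 genes met, and limma 3.58.1 in R 4.3.3 was fitted to 16 group means over 78 libraries with a trend in the prior variance. All 25 contrasts were adjusted by Benjamini-Hochberg over all tested genes. Count tests on reads recovered from these steps were not run. The scripts were tested on simulated data. Adjusted p-values, standard errors and 95% intervals of differences rest on the spread between mice within groups, and the floors of 3 reads cover counting error only.

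Shares of Ccnd1 and Ccne1 used levels per kb of the longest protein-coding transcript and exact permutation tests (scipy 1.17.1). The lengths were settled on after shares with union-exon lengths had also been seen. The members, the gene lists and the tests were chosen with earlier results of these data known. From each list and contrast, up to 4 genes with the smallest adjusted p among those called are named. Lists are described by counts, and no set test was run. Cell type lists cover hepatocytes, Kupffer cells, monocytes and macrophages, neutrophils, T and NK cells, B cells, sinusoidal endothelium, stellate cells, cholangiocytes and erythroid cells. Motifs were searched as exact letters on both strands of RefSeq windows of 250 bases. Alternatives covered the left-out libraries, pseudocount, filter, normalization, samples in the fit, replicate block, mouse numbers, comparator and single replicates.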

Additional observations from a re-analysis of the deposited data

Results flagged for a closer look

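The 6 genes were examined in each of the 16 groups, 96 sets of livers, for a single liver far from the rest. Dixon's test (95% level) was made on the log2 scale. It marks a liver whose gap to the nearest other liver is a large part of the group range. Gaps below are shares of the log2 range, while levels are in normalized counts. Chance marks about 1 set in 20, and 5 sets were marked. Ccnd1 stood apart in wild-type vehicle 12 h replicate 1, at 7504 normalized counts against 1674 to 2194 in the rest of its group, a gap of 0.82 of the range. Ccnd1 stood apart in wild-type CCl4 24 h replicate 3, at 4647 normalized counts against 3108 to 3406 in the rest of its group, a gap of 0.773 of the range. Ccnd2 stood apart in wild-type CCl4 24 h replicate 4, at 889.7 normalized counts against 322 to 426 in the rest of its group, a gap of 0.726 of the range. Ccne2 stood apart in Adamts12-/- CCl4 12 h replicate 1, at 141 normalized counts against 72.8 to 80.2 in the rest of its group, a gap of 0.855 of the range. Myc stood apart in wild-type vehicle 7 days replicate 4, at 247 normalized counts against 73.2 to 95.6 in the rest of its group, a gap of 0.781 of the range. Calls that involve these livers are given in the report with and without a replicate where leaving one out changed them.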

How the results depend on the processing

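Most results kept their direction and their side of the threshold. With no filter, quantile normalization, a pseudocount of 8, a fit to the groups of one time, or mouse number below 7000 as a term, every count of members called stayed within 1.5 times its value. Leaving out each library in turn did so in 385 counts and not in 4. The exceptions were the step of 24 h over 12 h, where the Adamts12-/- count was 1 to 3 (1 with every library) and the wild-type count 3 to 5 (3 with every library). With all 80 libraries the Adamts12-/- count at 12 h was 1 in place of 4. Without the mice numbered below 7000 the wild-type counts were 3 at 24 h in place of 5, 1 for the step of 24 h over 12 h in place of 3, and 0 for the step of 7 days over 24 h in place of 5; fewer samples enter there, with single livers in 2 groups. Against the vehicle mean over the 4 times, chosen after seeing the data, 1 member was called at 7 days in Adamts12-/- and 1 in wild-type livers, in place of 0, and Ccne1 at 4 h turned to 1.24 in Adamts12-/- and 1.03 in wild-type livers. With that comparator 6 members in place of 4 were called at 12 h in Adamts12-/- livers, Ccnd1 and Ccnd2 being added. In wild-type livers of 4 h 5 members in place of 4 were called. The cause was not tested.

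Replicate numbers did not pair the livers: same-numbered livers had correlations of -0.27 to 0.31 (mean -0.0285; other numbers 0.0073), and with the replicate number as a block all 25 counts stayed within 1.5 times their value and 1 member call was lost, Myc over vehicle times in wild-type livers (adjusted p = 0.0552), where the count was 2 in place of 3. Union-exon lengths changed the size of shares, such as 9.41 in place of 16.4 points for Ccnd1 at 12 h in Adamts12-/- livers, and no call. The planned edgeR and DESeq2 fits on reads recovered from the steps were not run. Depth limits Ccne1 and Ccne2 most, whose lowest libraries lie near the floor of 3 reads.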
